A study of Homo sapiens with 12 samples.

Results

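The genes described here are 10 genes of iron uptake, storage and export, chosen by symbol from a table of 62069 genes: TFRC, SLC11A2, STEAP1 and STEAP2 for uptake, FTH1, FTL and NCOA4 for storage, SLC40A1 for export, and ACO1 and IREB2 for sensing. They were listed because iron is known to build up in senescent cells, and the rule uses no measured value. Each of the 10 symbols had a row, but the row of NCOA4 (ENSG00000266412), the receptor that delivers ferritin for breakdown, held 0 reads in all 12 libraries, and NCOA4 was not analysed here. The symbols were matched through a later annotation than the build of the counts, so this row does not show that NCOA4 had no reads. The remaining 9 genes passed the filter on low counts and were among the 15284 genes tested.

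Cells take up iron bound to transferrin through the transferrin receptor TFRC, reduce it in endosomes, move it into the cytosol through the metal transporter SLC11A2 (DMT1), store it in ferritin, a shell built of the heavy chain FTH1 and the light chain FTL, and release it through the exporter SLC40A1 (ferroportin). The iron regulatory proteins, encoded by ACO1 (IRP1) and IREB2 (IRP2), bind stem-loops called iron-responsive elements (IREs) when iron is scarce. Binding near the start of the ferritin and ferroportin transcripts blocks their translation, while binding in the 3′ untranslated region of the TFRC transcript protects it from decay. RNA-seq therefore reads the transcript level of these genes and not the step at which ferritin translation is set.

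IMR90 are human lung fibroblasts, and their ER:RAS derivative carries RAS joined to an estrogen receptor domain, which lets 4-hydroxytamoxifen (4OHT) switch RAS on and start oncogene-induced senescence (OIS). There were 4 groups of 3 libraries: vector cells without 4OHT, vector/4OHT cells, and 4OHT-treated cells with the shRNA shXPO7_3 or shXPO7_5 against the nuclear transport receptor XPO7. All cells were at passage 13 and were grown for 7 days, with the medium renewed on day 4. The 4OHT-treated cells received 100 nM 4OHT according to the labels. Day 5 after induction is given for all 12 libraries, also those without 4OHT, and the vector is taken from the study's description. The question of the series is what OIS changes and what knockdown of XPO7 changes in cells undergoing OIS. All groups come from 1 fibroblast line, and neither the labels nor the text of the study used here say whether the 3 libraries of a group were separate cultures, so a p-value here reflects variation between libraries that may be technical only.

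The total count per library ran from 28534141 to 60397769. XPO7 was at 137 ± 8.81 CPM (reads of a gene scaled to library size by TMM, the unit of all levels here; SD, n = 3) in vector/4OHT, 27.7 ± 1.14 CPM in shXPO7_3/4OHT and 52.2 ± 1.62 CPM in shXPO7_5/4OHT. All 9 fibroblast markers checked were expressed, and 5 leukocyte and 4 erythroid markers were under 1 CPM in every library. DCN, a fibroblast matrix gene, had the largest change of these 9 and averaged 987 CPM in vector and 95.6 CPM in vector/4OHT. COL6A3 was higher in vector/4OHT (7136 CPM in vector and 9872 CPM in vector/4OHT). In the same order, COL1A1 averaged 9346 and 6824 CPM, COL1A2 7481 and 3351, COL3A1 1298 and 1124, and VIM 5804 and 5235. THY1 averaged 621 and 391 CPM, PDGFRB 244.5 and 217.5, and LUM 77.1 and 51.9. Of 5 epithelial markers, KRT18 was at 29.1 to 46.4 CPM over all libraries, and KRT19 averaged 33.6 CPM in vector and 2.01 CPM in vector/4OHT. EPCAM was at 0.357 to 1.11 CPM and CDH1 at 0.0302 to 0.202 CPM over all libraries, and SFTPC was at 0. Of 4 endothelial markers, VWF was at 1.70 to 4.17 CPM, KDR at 0.17 to 1.10 CPM, and PECAM1 and CDH5 were at 0. The proliferation marker MKI67 averaged 270 CPM in vector and 27.5 CPM in vector/4OHT, and IL1B, a cytokine of the senescent secretome, averaged 0.257 and 137 CPM. The part of these changes in the iron gene values was not tested. In some libraries the level of a gene followed its GC content. Across genes, the Spearman correlation between GC content and a library's log2 ratio to the average of vector/4OHT was 0.58 in replicate T of shXPO7_3/4OHT, and 0.61 and 0.79 in replicates T and B of shXPO7_5/4OHT. In the other 9 libraries it lay between -0.34 and 0.32.

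IRE sequences were searched for in the annotated untranslated regions of the transcripts (GENCODE release 29, GRCh38), because they are what several of these genes share at the level of sequence. The pattern was a bulged C, 5 paired bases (G-T pairs allowed), the loop CAGTGN of 6 bases, and the 5 bases that pair back. It was found in the 5′ untranslated region of FTH1, FTL and SLC40A1 and, at 4 sites, in the 3′ untranslated region of TFRC. These 7 sites are all that the pattern found in the listed genes. Each is written 5′ to 3′ on the transcript strand with the bulged C and the loop in capitals.
FTH1, 5′ untranslated region, chr11:61967575-61967602, minus strand: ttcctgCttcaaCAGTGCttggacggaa
FTL, 5′ untranslated region, chr19:48965335-48965362, plus strand: ctcttgCttcaaCAGTGTttggacggaa
SLC40A1, 5′ untranslated region, chr2:189580662-189580689, minus strand: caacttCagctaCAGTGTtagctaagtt
TFRC, 3′ untranslated region, chr3:196050980-196051007, minus strand: aattatCggaagCAGTGCcttccataat
TFRC, 3′ untranslated region, chr3:196050576-196050603, minus strand: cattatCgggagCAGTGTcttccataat
TFRC, 3′ untranslated region, chr3:196050511-196050538, minus strand: ctgtatCggagaCAGTGAtctccatatg
TFRC, 3′ untranslated region, chr3:196050464-196050491, minus strand: aattatCgggaaCAGTGTttcccataat
The same pattern occurred in the 5′ untranslated region of 0.183% and the 3′ untranslated region of 0.671% of 19684 genes searched. It was not found in SLC11A2, IREB2, ACO1, NCOA4, STEAP1 or STEAP2, which says only that these letters are not in their annotated regions. Elements with another stem or loop were not searched for, so these genes are not shown to lack an IRE.

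In OIS the transcripts of the ferritin chains and of the exporter fell and that of the transferrin receptor rose (vector/4OHT against vector). Of the 9 genes tested, 6 were called at an adjusted p under 0.05 (edgeR, quasi-likelihood F-test, with Benjamini-Hochberg adjustment over all genes tested), 3 higher (TFRC, STEAP2 and ACO1) and 3 lower (FTH1, FTL and SLC40A1). OIS moved a large part of the transcriptome: 50.9% of all genes passed the same test (24.8% higher, 26.1% lower), and the 6 of 9 is to be read against that share. The median log2 fold change was 0.19 over the 9 genes and -0.0068 over all genes. In libraries of whole cultures, fewer cells of a kind and less RNA per cell cannot be told apart.

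**Figure D1:**
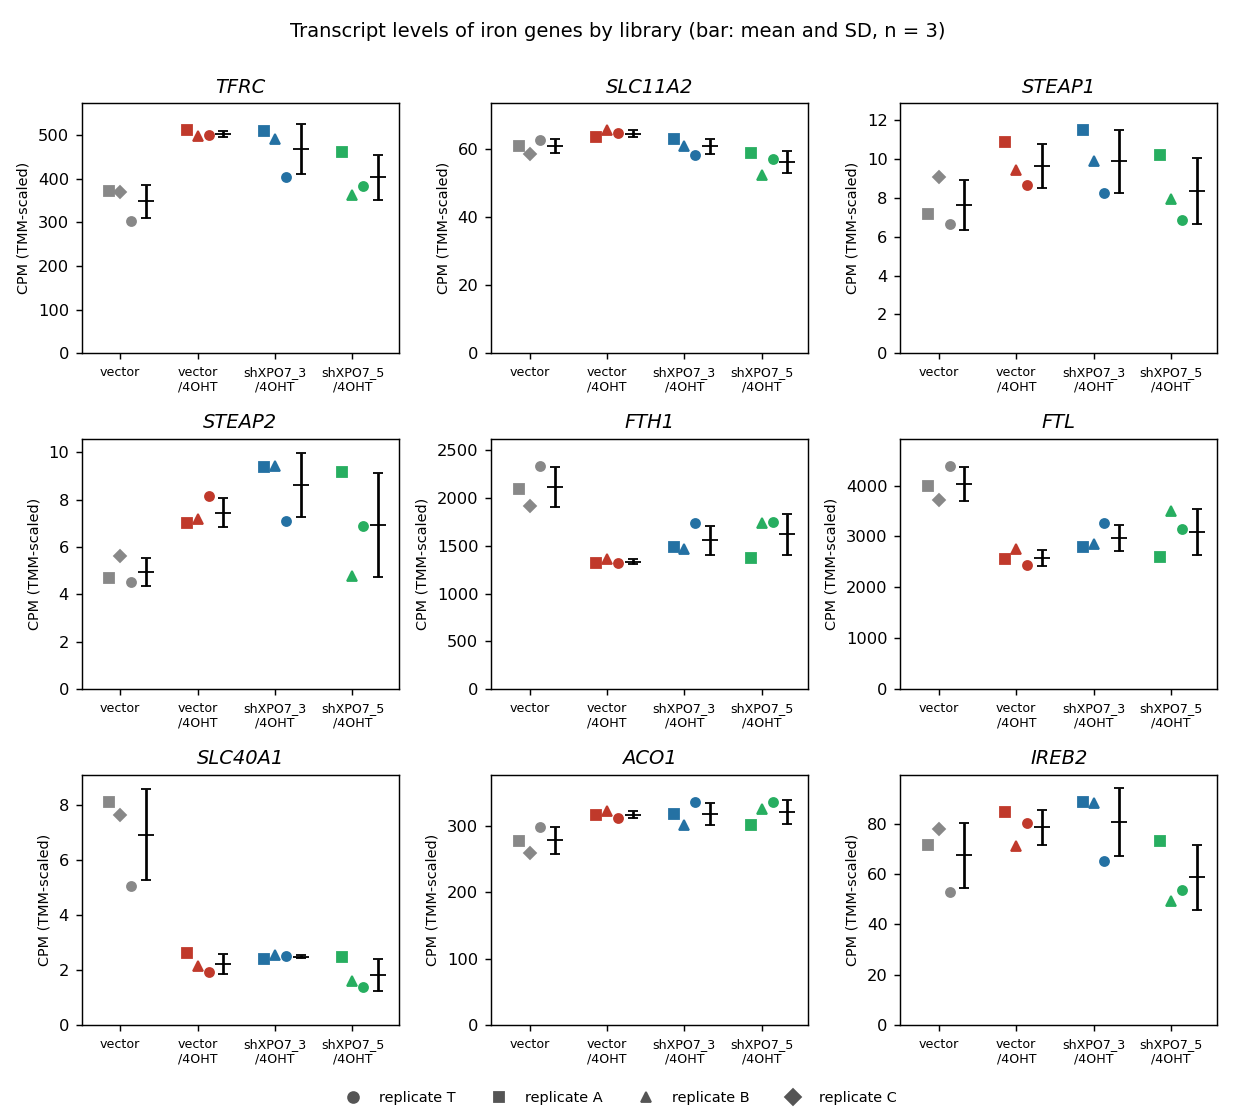
Level of each of the 9 iron genes with counts in each of the 12 libraries, in TMM-scaled CPM on a linear axis from 0. Points are libraries with the replicate letter as the symbol, and the black bar beside each group is its mean and SD (n = 3). FTH1, FTL and SLC40A1 were lower and TFRC was higher in all 3 vector/4OHT libraries than in all 3 vector libraries.

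Among the uptake genes, TFRC (ENSG00000072274, chr3:196027183-196082189, GRCh38) was at 304, 372 and 369 CPM in the vector libraries and at 501, 512 and 497 CPM in the vector/4OHT libraries. The groups did not overlap, and the SD was 38.3 CPM in vector and 7.50 CPM in vector/4OHT. The log2 fold change was 0.53 ± 0.11 (SE; edgeR adjusted p = 0.0017), a 1.44-fold rise. It was called in all 16 alternatives tried, with values from 0.33 to 0.60.

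SLC11A2, which carries ferrous iron across membranes, was at 58.7 to 62.8 CPM in vector and at 63.6 to 65.6 CPM in vector/4OHT. The difference of 0.087 on the log2 scale (95% CI -0.058 to 0.23, edgeR adjusted p = 0.30) was not called, although the libraries of the groups did not overlap. Of the STEAP proteins, which belong to a family of metal reductases, STEAP2 was at 4.51, 4.71 and 5.64 CPM in vector and at 8.14, 7.02 and 7.20 CPM in vector/4OHT. STEAP2 rose, with a log2 fold change of 0.59 ± 0.20 (SE; edgeR adjusted p = 0.028). That call rests on 146 to 357 counts per library and was lost without vector replicate T or A and without vector/4OHT replicate T or B, with adjusted p-values up to 0.095 from edgeR. With 1 surrogate variable its log2 fold change was 0.32 and was not called either (edgeR adjusted p = 0.14). STEAP1, whose gene lies beside STEAP2 on chromosome 7, was at 6.64, 7.17 and 9.07 CPM in vector and at 8.64, 10.9 and 9.44 CPM in vector/4OHT. These groups overlapped and STEAP1 was not called (log2 fold change 0.34 ± 0.17 SE, edgeR adjusted p = 0.12). Without vector replicate C, STEAP1 was called (log2 fold change 0.48, edgeR adjusted p = 0.048).

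Per kilobase of exon, the ferritin chains were the most abundant transcripts among the 9 genes. FTH1 (ENSG00000167996, chr11:61959718-61967660, GRCh38) was at 2334, 2098 and 1918 CPM in vector and at 1316, 1319 and 1365 CPM in vector/4OHT. FTL (ENSG00000087086, chr19:48965301-48966878, GRCh38) was at 4383, 3995 and 3725 CPM in vector and at 2436, 2560 and 2752 CPM in vector/4OHT. Neither gene had a vector/4OHT library as high as its lowest vector library. FTH1 had a log2 fold change of -0.67 ± 0.10 (SE; edgeR adjusted p = 0.000193), to 0.63 of its vector level. FTL had a log2 fold change of -0.64 ± 0.11 (SE; edgeR adjusted p = 0.00030), to 0.64 of its vector level. Together they made up 0.641% ± 0.048 (SD, n = 3) of the counts of a vector library and 0.388% ± 0.020 (SD, n = 3) of a vector/4OHT library. Both were called in all 16 alternatives, with values from -0.77 to -0.48 for FTH1 and from -0.74 to -0.47 for FTL.

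The ratio between the chains was also computed. Per kilobase of exon, FTL was 4.41 ± 0.075 times FTH1 in vector and 4.48 ± 0.19 times in vector/4OHT (SD, n = 3), a log2 difference of the ratio of 0.021 (two-sided exact permutation p = 0.7). With 3 libraries against 3, that test allows no p below 0.1. The ratio was 4.41 ± 0.095 in shXPO7_3/4OHT and 4.40 ± 0.25 in shXPO7_5/4OHT. Reads of the ferritin genes can also match processed copies elsewhere in the genome. The 25 copies named FTH1P held 0.58% to 0.78% as many counts as FTH1, and the 16 copies named FTLP held 0.025% to 0.060% as many as FTL. The FTH1P copies with the most counts, FTH1P7 and FTH1P8, were also lower in OIS (log2 fold changes -0.69 and -0.85, edgeR adjusted p = 0.0042 and 0.0030). Without knowing how multiply matching reads were assigned, FTH1 and its copies cannot be fully separated. FTH1 also shares 1267 exonic bases with BEST1 on the opposite strand, which held 7727 counts over all libraries against 742635 for FTH1.

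SLC40A1, the only known iron exporter of vertebrate cells, had the largest fold change among the 9 genes in OIS. It was at 5.04, 8.11 and 7.62 CPM in vector and at 1.91, 2.62 and 2.16 CPM in vector/4OHT, with 163 to 334 and 70 to 107 counts per library. The groups did not overlap. The log2 fold change was -1.65 ± 0.22 (SE; edgeR adjusted p = 4.44e-05), to 0.32 of the vector level, and the gene was called in all 16 alternatives with values from -1.96 to -1.49.

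Of the sensors, ACO1, which is a cytosolic aconitase when it holds an iron-sulfur cluster and IRP1 when it does not, was at 299, 277 and 259 CPM in vector and at 313, 316 and 323 CPM in vector/4OHT. ACO1 rose by a log2 fold change of 0.19 ± 0.069 (SE; edgeR adjusted p = 0.038), with no overlap between the groups. The call was kept in 6 of 16 alternatives and was lost, among others, with upper-quartile scaling (edgeR adjusted p = 0.45), with DESeq2 (0.055) and without vector replicate A or C or any 1 of the vector/4OHT libraries. IREB2, the sensor that is degraded when iron is plentiful, was at 53.0, 71.5 and 77.8 CPM in vector and at 80.2, 84.5 and 71.0 CPM in vector/4OHT. These values overlapped, and its log2 fold change of 0.22 (95% CI -0.17 to 0.61, edgeR adjusted p = 0.32) was not called. Without vector replicate T, the lowest library, it was 0.074, and without vector replicate C 0.34, neither of them called. Once each library's trend on GC content and transcript length was removed (GC adjustment) it was 0.17 (edgeR adjusted p = 0.0060), a setting under which 64.8% of all genes were called.

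**Figure D2:**
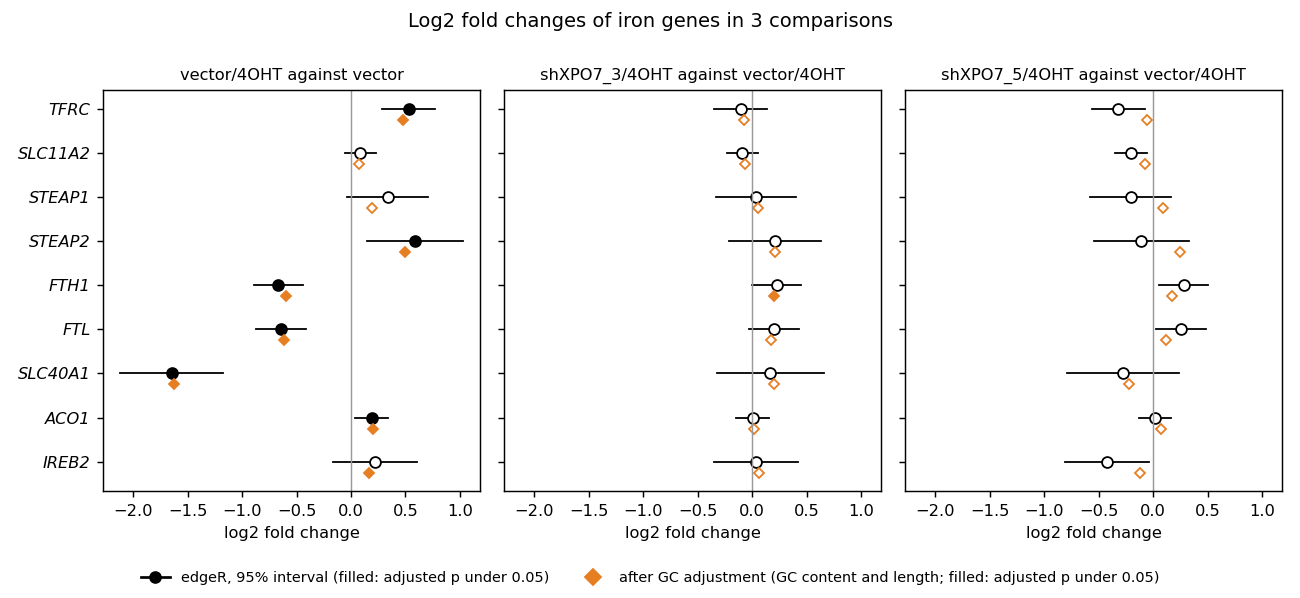
Log2 fold change of the 9 iron genes in vector/4OHT against vector, shXPO7_3/4OHT against vector/4OHT and shXPO7_5/4OHT against vector/4OHT. Black circles are edgeR estimates with 95% confidence intervals (CI), orange diamonds are estimates after GC adjustment, and filled symbols have an adjusted p under 0.05. In OIS the intervals of TFRC, STEAP2 and ACO1 lie above 0 and those of FTH1, FTL and SLC40A1 below 0, while in shXPO7_5/4OHT the adjustment moves TFRC from -0.32 to -0.059.

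Per kilobase of exon, the order in vector/4OHT ran from FTL (2942 ± 181 CPM per kilobase; SD, n = 3), FTH1 (657 ± 13.5), TFRC (63.8 ± 0.95) and ACO1 (42.0 ± 0.66) to STEAP2 (0.855 ± 0.069) and SLC40A1 (0.515 ± 0.083). Between them lay IREB2 (7.27 ± 0.64), SLC11A2 (6.37 ± 0.098) and STEAP1 (5.93 ± 0.69), and STEAP1 did not differ from the other two beyond the spread of the libraries. In vector STEAP2 was the lowest (0.569 ± 0.069 CPM per kilobase) and SLC40A1 stood above it (1.60 ± 0.38), an order that vector/4OHT turned round.

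The ratio of FTH1 to TFRC sets a storage against an uptake transcript. It is in CPM without regard to length, so that only its change between libraries can be read. It was 7.67, 5.64 and 5.20 in the vector libraries and 2.63, 2.58 and 2.75 in the vector/4OHT libraries. The lowest vector value was above the highest vector/4OHT value. The log2 ratio was lower by 1.20 on average in vector/4OHT (log2 difference -1.20, two-sided exact permutation p = 0.1, the lowest possible with 3 against 3).

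Genes with the IRE pattern were called in both directions in OIS. Of the 27 genes with a match in the 5′ untranslated region that were tested, 7 were called higher and 8 lower, with a median log2 fold change of -0.098, where 24.8% of all genes were called higher and 26.1% lower. Without FTH1, FTL and SLC40A1 the numbers were 7 higher and 5 lower of 24, with a median of 0.052. Of the 107 tested genes with a match in the 3′ untranslated region, 26 were called higher and 32 lower, with a median of 0.061. Both lists lie near those shares. These counts were made after the values of the iron genes had been seen.

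The promoters of the iron genes were searched for TGANTCA, a pattern wider than the AP-1 site TGA(C/G)TCA, and for the antioxidant response element core TGACNNNGC. Both strands were searched, in windows from 250 bases before to 50 after the start (RefSeq, GRCh38.p14). TGANTCA was present in 7.71% and TGACNNNGC in 13.3% of 35116 promoters. Of the 9 members with a window, TGANTCA was found in an NCOA4 window (TGAATCA) and an SLC11A2 window (TGATTCA), and TGACNNNGC in an NCOA4 window. Neither TGANTCA hit had C or G at its open position, so neither was the site TGA(C/G)TCA. None of the windows of TFRC, FTL, SLC40A1, ACO1 and STEAP2 held either motif. FTH1 had no window and was not searched. The 9 members had 15 windows between them, while the shares above are per promoter.

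Of 92 further iron genes in 4 lists, 73 were tested, and in OIS 20 were higher, 21 lower and 32 not called (56.2% called, against 50.9% of all genes; median log2 fold change 0.046). In the list of uptake, reduction and release, 3 of 11 were higher and 5 lower, with a median of -0.45. CUBN, which encodes the endocytic receptor cubilin, was at 1.28 to 1.58 CPM in vector and 3.01 to 3.72 CPM in vector/4OHT. CYBRD1, a ferric reductase of the plasma membrane, was at 214 to 246 CPM in vector and 95.1 to 99.3 CPM in vector/4OHT. CUBN rose by 1.25 and CYBRD1 fell by 1.28 on the log2 scale (edgeR adjusted p = 7.51e-06 and 1.26e-07), so members of this list moved both ways.

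In the list of intracellular handling and sensing, 4 of 14 genes were higher and 4 lower, with a median of -0.047. SLC7A11, the cystine importer that feeds glutathione synthesis, was at 73.2 to 135 CPM in vector and 204 to 250 CPM in vector/4OHT, a rise of 2.27-fold (edgeR adjusted p = 0.0017). EPAS1, which encodes the hypoxia-inducible factor HIF-2α, was at 483 to 563 CPM in vector and 163 to 166 CPM in vector/4OHT, and fell by 1.66 on the log2 scale (SE 0.076; edgeR adjusted p = 3.62e-09). The SD of EPAS1 was 40.4 CPM in vector and 1.32 CPM in vector/4OHT.

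In the list of heme synthesis, transport and breakdown, 5 of 20 genes were higher and 7 lower, with a median of -0.13. FLVCR2, a membrane transporter, was at 4.42 to 6.09 CPM in vector and 1.70 to 2.18 CPM in vector/4OHT, and fell by 1.39 on the log2 scale (edgeR adjusted p = 7.58e-06). In the list of mitochondrial iron and iron-sulfur clusters, 8 of 28 genes were higher and 5 lower, with a median of 0.084. SLC25A37, the mitochondrial iron importer mitoferrin 1, was at 30.3 to 30.6 CPM in vector and 51.8 to 55.7 CPM in vector/4OHT (log2 fold change 0.83 ± 0.078 SE, edgeR adjusted p = 2.44e-06). These 6 genes were called in all 16 alternatives.

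**Figure D3:**
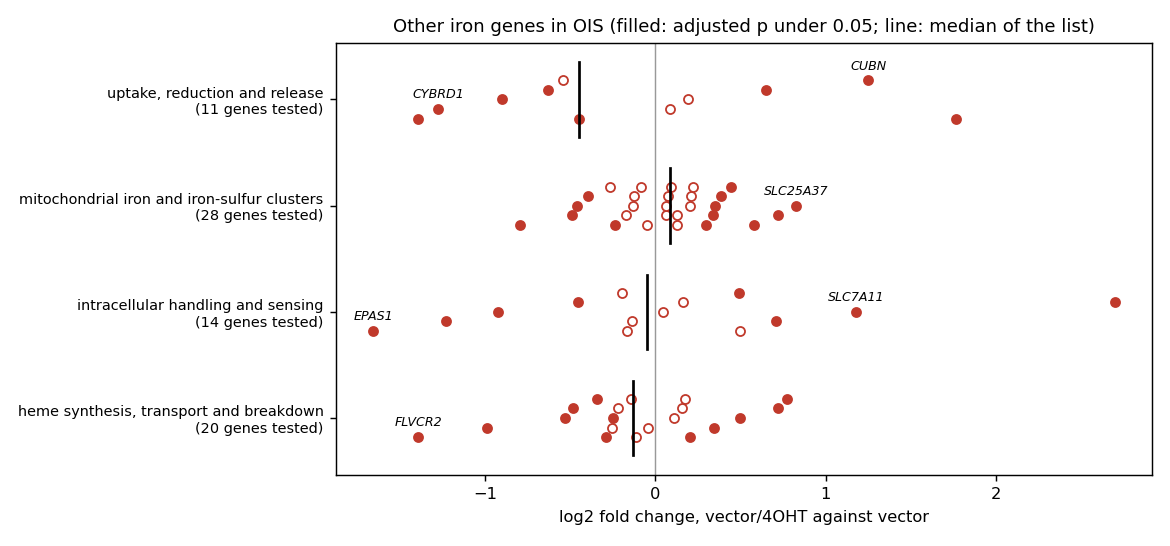
Log2 fold change in vector/4OHT against vector of the 73 further iron genes tested, in 4 lists. Each point is a gene, filled where the adjusted p was under 0.05, the vertical bar is the median of the list, and the 6 genes named in the text are labelled. Each list has filled points on both sides of 0, 20 above and 21 below in all.

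Under knockdown of XPO7 with shXPO7_3, none of the 9 iron genes differed detectably from vector/4OHT. The count was 0 by edgeR, where 0.124% of all genes were called, and 0 at an unadjusted p under 0.05, which 6.41% of all genes reached. DESeq2 called 0 of the 9 (0.537% of all genes). FTH1 was at 1733, 1483 and 1461 CPM and FTL at 3264, 2787 and 2853 CPM in shXPO7_3/4OHT, all above the vector/4OHT libraries. The log2 fold changes were 0.23 for FTH1 (95% CI -0.0015 to 0.45, edgeR adjusted p = 0.79) and 0.20 for FTL (-0.032 to 0.43, edgeR adjusted p = 0.89). After GC adjustment, FTH1 alone of the 9 was called (log2 fold change 0.20, edgeR adjusted p = 0.029, where 2.5% of all genes were called). TFRC was at 404, 509 and 492 CPM, with replicate T, the library of the GC trend, as the lowest, and a log2 fold change of -0.10 (95% CI -0.35 to 0.14).

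SLC40A1 was at 2.53, 2.42 and 2.53 CPM in shXPO7_3/4OHT, within the range of the vector/4OHT libraries (log2 fold change 0.17, 95% CI -0.32 to 0.66). ACO1 differed by 0.0061 on the log2 scale (95% CI -0.14 to 0.16), and SLC11A2 by -0.088 (-0.23 to 0.057). For IREB2, STEAP1 and STEAP2 the intervals ran from -0.35 to 0.42, from -0.33 to 0.40 and from -0.21 to 0.64. Changes within these intervals were not excluded.

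With shXPO7_5, 0 of the 9 genes were called by edgeR, where 0.589% of all genes were called, and 0 by DESeq2 (2.45% of all genes). At an unadjusted p under 0.05 there were 5 of 9, TFRC, SLC11A2, FTH1, FTL and IREB2, where 21.6% of all genes passed. TFRC was at 385, 462 and 364 CPM, below all vector/4OHT libraries, with a log2 fold change of -0.32 ± 0.11 (SE; edgeR adjusted p = 0.18). FTH1 was at 1747, 1370 and 1742 CPM, above all vector/4OHT libraries, with a log2 fold change of 0.28 ± 0.10 (SE; edgeR adjusted p = 0.19). In both genes replicate A stood nearest to vector/4OHT.

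FTL was at 3139, 2600 and 3505 CPM in shXPO7_5/4OHT and overlapped with vector/4OHT (log2 fold change 0.25 ± 0.11 SE, edgeR adjusted p = 0.22). SLC11A2 was at 57.0, 59.0 and 52.5 CPM, below all vector/4OHT libraries (log2 fold change -0.20 ± 0.067 SE, edgeR adjusted p = 0.16). IREB2 was at 53.5, 73.3 and 49.2 CPM (log2 fold change -0.42 ± 0.18 SE, edgeR adjusted p = 0.22). Replicates T and B of shXPO7_5/4OHT, which stood farthest from vector/4OHT in TFRC, FTH1, FTL and IREB2, were also those with the strongest GC trend. Without replicate A 23% of all genes were called, against 0.589% with it, and all 5 iron genes were among them, with log2 fold changes of -0.42 (TFRC), 0.39 (FTH1), 0.36 (FTL), -0.24 (SLC11A2) and -0.61 (IREB2).

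The fold changes of shXPO7_5/4OHT followed GC content over all genes (Spearman correlation 0.69, against -0.13 in OIS and 0.11 for shXPO7_3). Among the 9 iron genes alone the correlation was -0.8 in OIS, 0.2 for shXPO7_3 and 0.6 for shXPO7_5. The transcripts of FTL and FTH1 hold 56.3% and 53.9% GC, and those of TFRC, IREB2, STEAP1 and STEAP2 hold 38.3% to 41.8%. After GC adjustment the log2 fold changes of the 5 genes shrank to -0.059 (TFRC), 0.17 (FTH1), 0.12 (FTL), -0.078 (SLC11A2) and -0.12 (IREB2), and 0 of 9 were called, where 3.29% of all genes were. FTH1 stood nearest to the threshold (SE 0.044, edgeR adjusted p = 0.055). The adjustment also removes any difference between groups that follows GC content or length. STEAP2, at 6.87, 9.15 and 4.78 CPM, had a log2 fold change of -0.11 before and 0.25 after the adjustment. The same adjustment left the OIS values of TFRC (0.48), FTH1 (-0.60), FTL (-0.61) and SLC40A1 (-1.63) called.

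The remaining genes were not called with shXPO7_5. SLC40A1 was at 1.38, 2.48 and 1.61 CPM (log2 fold change -0.28, 95% CI -0.80 to 0.24), from 41 to 82 counts per library. Leaving out 1 library moved this value between -0.56 (without shXPO7_5/4OHT replicate A) and -0.12 (without shXPO7_5/4OHT replicate T), also to -0.16 without vector/4OHT replicate A and -0.19 without shXPO7_5/4OHT replicate B, and none of these was called. ACO1 was at 336, 302 and 325 CPM (log2 fold change 0.018, 95% CI -0.13 to 0.17). STEAP1 was at 6.87, 10.2 and 7.92 CPM (log2 fold change -0.21, 95% CI -0.58 to 0.17) and overlapped with vector/4OHT.

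**Figure D4:**
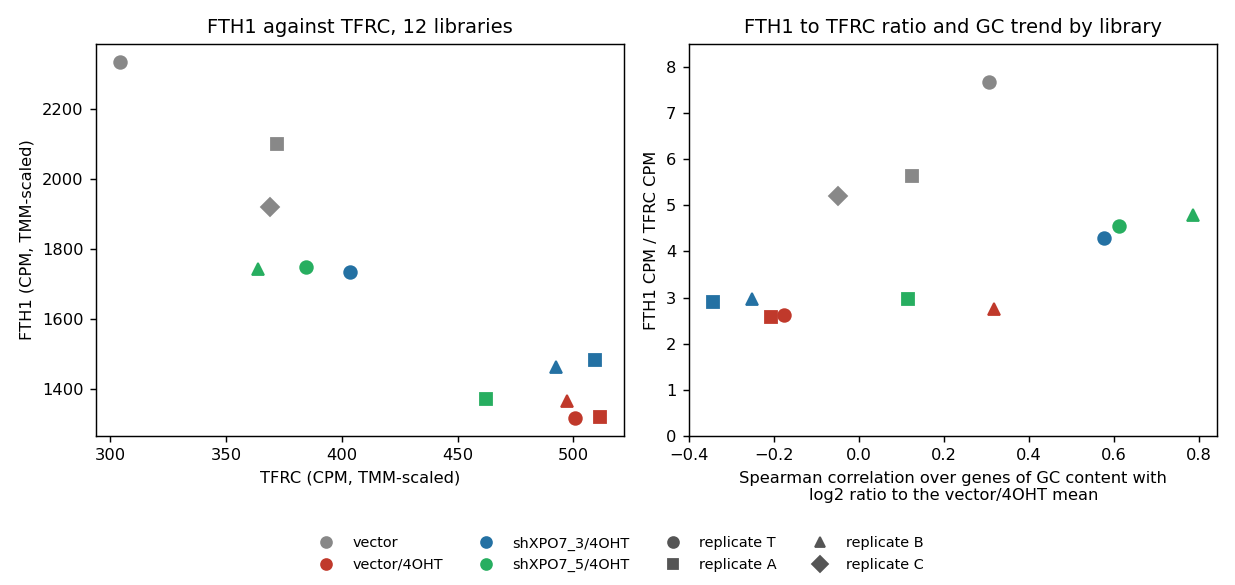
Left, FTH1 against TFRC in the 12 libraries, both in TMM-scaled CPM (axes do not start at 0). Right, ratio of FTH1 to TFRC in CPM against the Spearman correlation across genes between GC content and the log2 ratio to the average of vector/4OHT, with colours for groups and symbols for replicate letters. Replicate T of shXPO7_3/4OHT and replicates T and B of shXPO7_5/4OHT lie apart from the other 4OHT libraries on both plots, with ratios of 4.29, 4.54 and 4.79.

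The ratio of FTH1 to TFRC showed the same 3 libraries. It was 4.29, 2.91 and 2.97 in shXPO7_3/4OHT and 4.54, 2.96 and 4.79 in shXPO7_5/4OHT, against 2.58 to 2.75 in vector/4OHT and 5.20 to 7.67 in vector. The log2 ratio differed from vector/4OHT by 0.33 with shXPO7_3 and by 0.60 with shXPO7_5 (two-sided exact permutation p = 0.1 for each, the lowest possible). Both comparisons use the same 3 vector/4OHT libraries. The other 3 knockdown libraries, at 2.91 to 2.97, lay just above the highest vector/4OHT library.

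The shRNAs were also compared directly. Of the 9 genes, 0 were called between shXPO7_5/4OHT and shXPO7_3/4OHT (0.0131% of all genes), 0 by DESeq2, and 1 passed an unadjusted p under 0.05, which 11.9% of all genes reached. That gene was IREB2, with a log2 fold change of -0.46 (95% CI -0.85 to -0.074, edgeR adjusted p = 0.39), which was -0.18 after GC adjustment. FTH1 differed by 0.055 (95% CI -0.17 to 0.28). TFRC, STEAP1 and STEAP2 differed by -0.21, -0.24 and -0.32 before GC adjustment and by 0.015, 0.033 and 0.035 after it, none of them called.

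Of the 73 further iron genes, 0 were called with either shRNA by edgeR or by DESeq2. At an unadjusted p under 0.05 there were 6 with shXPO7_3 and 18 with shXPO7_5, where 6.41% and 21.6% of all genes passed. Between the shRNAs 0 were called and 11 passed that level, beside 11.9% of all genes. These counts lie near the shares over all genes. The median log2 fold change was -0.0055 with shXPO7_3 and 0.029 with shXPO7_5, beside -0.0031 and 0.0058 over all genes. Among the 6 genes named for OIS, EPAS1 was at 158 ± 6.21 CPM and CYBRD1 at 97.8 ± 7.11 CPM in shXPO7_3/4OHT (SD, n = 3), against 165 ± 1.32 and 97.1 ± 2.07 CPM in vector/4OHT. With shXPO7_5 the cystine importer SLC7A11 was at 155 ± 46.8 CPM, between its means in vector and vector/4OHT, with the spread of its libraries reaching into both groups. Its log2 fold change against vector/4OHT was -0.60 (edgeR adjusted p = 0.21) and shrank to -0.15 after GC adjustment.

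Over the 12 libraries, the genes whose log2 level followed TFRC most closely among 10568 compared were G3BP2, TOMM70 and FAM8A1 (Pearson correlations 0.994, 0.993 and 0.992). FTH1 was followed most closely by NPC2, CRTAP and PLXND1 (0.993, 0.988 and 0.986). For FTL they were NPC2, FTH1 and NUP62 (each between 0.984 and 0.985). The libraries of a group share their treatment, and some share a GC trend, so these values describe likeness over these 12 libraries only.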

How the data were processed

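An Illumina stranded mRNA kit was used. For each of 12 libraries the authors deposited raw counts per gene, without normalization. The submitters' processing notes list hg19/GRCh37 as the build and CASAVA 1.8.4, TopHat2 2.0.11 and featureCounts 1.18.0 as tools. Annotation, strandedness and multi-mapping rules are not given in any source used here. The 92 spike-in entries held 0 counts and were left out. Symbols, GC content, lengths and coordinates came from reference tables and GENCODE release 29 (GRCh38), matched by Ensembl identifier, and gave a symbol to 49268 genes with 99.49% of the counts.

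A quasi-likelihood model of the 4 groups, without covariates, was fitted to all 12 libraries with edgeR 4.0.16 (R 4.3.3) after filterByExpr and TMM scaling. The Benjamini-Hochberg adjustment ran over 15284 genes, with a threshold of 0.05. Totals ran from 28534141 to 60397769. The analysis was tested on simulated counts. The iron genes and lists were chosen with earlier results of these data known. Named were all members, XPO7, and of the further iron genes up to 3 called genes each way with the largest change, if their libraries did not overlap and log2 CPM averaged 1 or more; none were called under knockdown. For likeness the average had to be 2 or more.

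Alternatives were upper-quartile or RLE factors, a filter of 1 count or of 1 CPM in 6 or more libraries, a block for the replicate letter, a GC and length adjustment (a spline with 5 degrees of freedom per library, as an offset; 97.3% of genes had both values) with and without that block, 1 surrogate variable (sva 3.50.0), only the 2 groups compared, DESeq2 1.42.0 without independent filtering, and each library left out.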

Additional observations from a re-analysis of the deposited data

How the results depend on the processing

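Each comparison was repeated under 16 alternatives. The number of iron genes called in OIS stayed between 4 and 7 of 9, and that of the further iron genes between 37 and 54. The share of all genes called moved as well, from 24.6% with a filter of 1 count (31672 genes tested) to 64.8% after GC adjustment. With a library left out it was 43% to 47.2%. Under knockdown none of the members and further iron genes was called in the reported analysis, and the number moved with several settings. With shXPO7_3, 1 member and 2 further iron genes were called after GC adjustment, 1 and 2 with that adjustment and the replicate block, and 0 and 2 with 1 surrogate variable (2.5%, 3.15% and 1.22% of all genes). With shXPO7_5, the adjusted numbers were 0 and 6, those of adjustment and block 1 and 9, and those of the surrogate variable 4 and 12 (3.29%, 6.8% and 14.6% of all genes). Leaving out 1 library gave 0 to 5 members and 0 to 19 further genes, the highest without shXPO7_5/4OHT replicate A, where 23% of all genes were called. Between the shRNAs, 1 member and 1 further gene were called with the surrogate variable and 2 further genes with adjustment and block (0.425% and 0.451% of all genes). The cause of these changes was not tested.

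The sign turned for several log2 fold changes of the members, none of them called in the reported analysis or where the sign had turned. In OIS these were SLC11A2 (-0.011 with upper-quartile factors, which moved the median of all genes to -0.10) and IREB2 (-0.12 with the surrogate variable). With shXPO7_3 they were ACO1 (-0.0022 with no filter, -0.0017 with the surrogate variable; -0.038 to 0.042 with a library left out), IREB2 (-0.033 to 0.17) and STEAP1 (-0.082 to 0.14). With shXPO7_5 they were ACO1 (-0.012 with the surrogate variable; -0.015 to 0.062 with a library left out), STEAP1 (0.092 and, with the block, 0.090 after GC adjustment) and STEAP2 (0.25 in both; -0.36 to 0.11 with a library left out). Between the shRNAs, GC adjustment without and with the block turned TFRC (0.015 in both), FTH1 (-0.034 and -0.035), FTL (-0.057 and -0.056), STEAP1 (0.033 in both) and STEAP2 (0.035 and 0.032), and the surrogate variable turned ACO1 (-0.010). With a library left out, FTH1 ran from -0.0014 to 0.16, FTL from -0.043 to 0.16 and ACO1 from -0.022 to 0.058.

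The replicate letters (T, A, B or C) carry no stated meaning. Correlations of the deviations of same-letter libraries were 0.20 and 0.21 in OIS (2 pairs), -0.017 to 0.061 for shXPO7_3 and -0.071 to 0.19 for shXPO7_5. Between the shRNAs they were -0.23 to 0.37. The highest of all was between the T replicates of vector and shXPO7_3/4OHT (0.59), and pairs of unlike letters reached 0.51. Not every library correlated best with that of its own letter, and whether a letter marks a shared origin cannot be told from these values. With the letter as a replicate block, 7 members and 43 further genes were called in OIS (52.3% of all genes). With either shRNA 0 were called (0.0851% of all genes for shXPO7_3 and 0.975% for shXPO7_5). IREB2 (0.39) and STEAP1 (0.49) were then called in OIS and ACO1 (0.15) was not. Depth limits SLC40A1 most among the members, with 41 to 334 counts per library.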
